A study of Mus musculus with 11 samples.

Results

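The genes described here encode the chains of the collagens in the ventricles of mice with and without the Williams-Beuren syndrome (WBS) deletion, after vehicle or the drug JZL184. They were chosen as the protein-coding genes whose symbol names a collagen chain (Col, a type number, a and a chain number) and that had at least 10 estimated counts in every one of the 11 mice. Of 22608 genes in the table, 44 carried such a symbol and 33 met the count rule: 8 fibrillar chains, 8 chains of basement membranes and 17 others. Col8a2, just inside the rule, had 14 to 38 counts per mouse, and Col9a3, just outside, had 9 to 37. The other chains left out were Col2a1, Col6a4, Col6a5, Col9a1, Col9a2, Col10a1, Col11a1, Col17a1, Col19a1 and Col24a1, among which no mouse had more than 17 counts of any gene.

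The study asked how the heart transcriptome of complete deletion (CD) mice differs from that of wild-type (WT) mice and what JZL184, an irreversible inhibitor of the endocannabinoid-degrading enzyme MAGL, does to it. RNA of the ventricle, as the labels name the source, was sequenced in 5 WT hearts (2 WT VEH and 3 WT JZL184) and 6 CD hearts (3 CD VEH and 3 CD JZL184). CD mice (strain WBS-CD in the labels) lack 1 copy of the WBS interval in every cell, on the C57BL/6J background of their WT littermates, and all groups were male mice of 8 to 16 weeks. JZL184 (8 mg/kg) or its vehicle was injected daily for 10 days, although the labels name the vehicle mice untreated. A letter names each mouse, as it does in the deposited table.

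Libraries held 69660329 to 92251550 estimated counts, of which 36.4% to 46.6% came from mitochondrial genes. Genes of the deleted interval followed the labels: Gtf2i ranged from 95.2 to 129 CPM (counts scaled to a library of fixed size) in WT and from 51.2 to 68.2 CPM in CD hearts. No gene used here checks the treatment labels. Summed cardiomyocyte markers ranged from 28330 to 40960 CPM, whereas the 3 atrial markers summed to at most 2.40 CPM, so the tissue was ventricle by its markers. No library repeated another of its group: replicates differed by far more than counting noise (chi-square per gene of at least 22.6, where noise alone gives about 1).

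Collagens are trimers of chains wound around one another. Fibroblasts lay down the fibrillar types I, III and V, which bear tension between cardiomyocytes, whereas type IV forms the sheet of the basement membrane around cardiomyocytes and capillaries, and type VI forms beaded microfibrils that link both. Some types, such as I, IV, V and VI, join different chains, so partner chains are described together, and excess fibrillar collagen is the hallmark of cardiac fibrosis.

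Chain genes of type IV lie head to head in pairs, each pair transcribed outward from a common region. In the GENCODE M21 annotation the starts of Col4a1 (minus strand) and Col4a2 (plus strand) on chromosome 8 overlap by 22 bases, those of Col4a4 and Col4a3 on chromosome 1 are 71 bases apart, and those of Col4a6 and Col4a5 on chromosome X are 1308 bases apart. Whether counting used strand was not given, so reads within the overlap cannot be assigned to either gene. The overlap is shown because the pair on chromosome 8 holds the most abundant chains of the heart. It is given 5′ to 3′ on the plus strand with its bases in capitals (GRCm38.p6, chr8:11312801-11312830).
Col4a1 and Col4a2: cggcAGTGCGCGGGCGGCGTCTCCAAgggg

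Promoter stretches are also shown for Col4a5, Col6a6 and Col8a1, the 3 chains of the first fit with the lowest adjusted p for a JZL184 effect that differed between genotypes. Each is the part of the RefSeq promoter window (250 bases before the start to 50 after) that lies upstream of every annotated exon, 5′ to 3′ on the strand of the gene: chrX:141475169-141475384 (plus) for Col4a5, chr9:105828161-105828335 (minus) for Col6a6 and chr16:57754738-57754987 (minus) for Col8a1. Capitals mark matches, on either strand, to any of 5 motifs: TATAAA of the TATA box, CCAAT of the CCAAT box, GGGCGG of the GC box, TGACTCA of the AP-1 site and the C-rich CCCTCCCC.
Col4a5: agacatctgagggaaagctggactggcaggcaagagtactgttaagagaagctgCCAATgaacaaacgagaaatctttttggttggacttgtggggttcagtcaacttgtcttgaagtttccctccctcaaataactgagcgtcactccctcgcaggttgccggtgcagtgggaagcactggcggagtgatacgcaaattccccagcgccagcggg
Col6a6: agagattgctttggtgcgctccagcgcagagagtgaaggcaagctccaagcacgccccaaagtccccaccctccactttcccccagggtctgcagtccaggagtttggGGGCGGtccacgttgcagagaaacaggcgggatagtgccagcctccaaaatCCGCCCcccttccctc
Col8a1: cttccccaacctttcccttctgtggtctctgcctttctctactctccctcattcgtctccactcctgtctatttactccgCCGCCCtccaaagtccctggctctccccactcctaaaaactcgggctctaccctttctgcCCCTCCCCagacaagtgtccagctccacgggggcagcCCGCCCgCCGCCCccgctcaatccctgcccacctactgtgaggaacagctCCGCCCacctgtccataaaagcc
GGGCGG, the letters of a GC box, or its complement occurred 2 times upstream of Col6a6 and 4 times upstream of Col8a1, and CCAAT occurred 1 time upstream of Col4a5. Of 32851 promoter windows in the table, 35.7% held GGGCGG, 37.4% CCAAT, 13.6% TATAAA, 10.8% CCCTCCCC and 5.2% TGACTCA. Among the 26 collagen chain genes with a window, 18 held GGGCGG, 9 CCAAT, 3 TATAAA, 10 CCCTCCCC and 1 TGACTCA in any of their windows. The percentages count windows and these numbers count genes, so they cannot be compared directly. A match is a description of the letters and no evidence of a bound factor.

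Basement membrane chains were the most abundant collagen mRNA of the ventricle. Per kilobase of transcript, the scale on which genes can be compared, Col4a1 averaged 55.8 CPM per kb and Col4a2 38.5, followed by Col3a1 (28.0), Col6a1 (15.2), Col6a2 (13.6), Col1a2 (13.5), Col15a1 (12.8) and Col1a1 (8.96). The ranges over mice of Col4a2 and Col3a1 overlapped, as did those of Col6a1, Col6a2, Col1a2 and Col15a1, whereas Col4a1 lay above all others in every mouse. The 33 chains together summed to between 1142 and 1599 CPM per mouse, or 0.113% to 0.16% of all counts. At the low end, Col7a1, Col8a2, Col25a1, Col12a1 and Col22a1 averaged under 0.08 CPM per kb and are at most traces in whole ventricle.

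**Figure D1:**
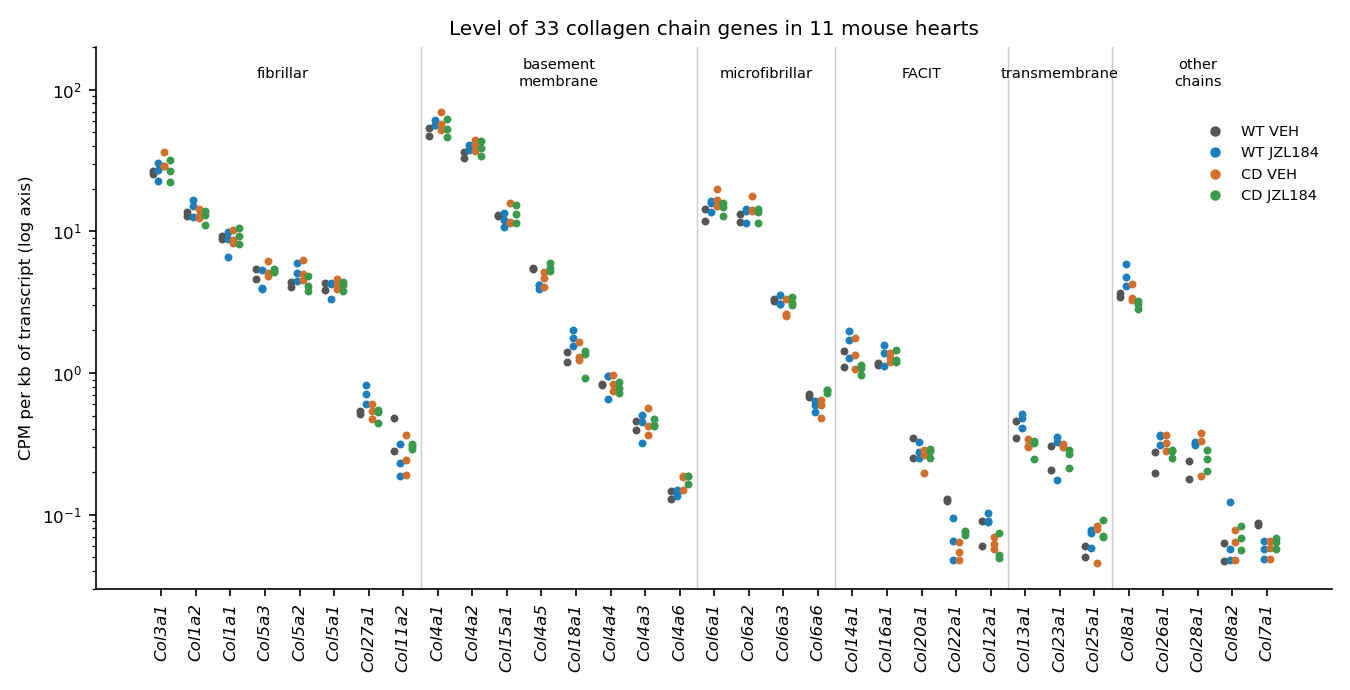
Level of the 33 collagen chain genes in CPM per kb of transcript (log axis), 1 point per mouse, grouped by class and coloured by group. Differences between genes span from 0.0642 CPM per kb (mean of Col7a1) to 55.8 (mean of Col4a1), whereas the 4 groups of a gene mostly overlap.

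Each gene was compared between groups with the edgeR quasi-likelihood test fitted to all 11 mice, with Benjamini-Hochberg adjustment over all genes tested and a call at an adjusted p under 0.05. Genes were kept where log2 CPM averaged 1 or more, which left 11319 genes and 21 of the 33 chains. The 12 others (Col4a6, Col7a1, Col8a2, Col11a2, Col12a1, Col13a1, Col20a1, Col22a1, Col23a1, Col25a1, Col26a1 and Col28a1) were tested in a second fit of the 13839 genes with at least 10 counts in every mouse. In bulk tissue, fewer cells of a type and less RNA per cell cannot be told apart.

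Between CD VEH and WT VEH hearts, which asks what the deletion does, few collagen chains passed the test. Among the 21 chains 1 rose (Col6a1) and 0 fell, while 15% of all genes tested rose and 15.4% fell. The median log2 fold-change of the 21 chains was 0.09, against 0.01 over all genes tested. By class it was 0.05 for the 7 fibrillar chains, 0.09 for the 7 basement membrane chains and 0.14 for the 7 others. In the second fit 2 of all 33 chains were called, 1 higher and 1 lower, against 25.3% of genes.

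Type I collagen, the main tension-bearing fibril of the ventricle, did not pass between the vehicle groups. Col1a1 measured 52.2 and 55.2 CPM in WT VEH and 49.0, 51.3 and 60.6 CPM in CD VEH. The CD VEH mice lay on both sides of the WT VEH mice, and the log2 fold-change was 0.00 with a 95% interval from -0.34 to 0.33 (adjusted p = 0.994). Its partner Col1a2 measured 68.9 and 73.2 CPM in WT VEH and 66.9, 68.7 and 76.7 CPM in CD VEH, a log2 fold-change of -0.01 (-0.27 to 0.26; adjusted p = 0.977).

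Col3a1, which encodes the single chain of type III and was the most abundant fibrillar chain, measured 140 and 148 CPM in WT VEH and 161, 160 and 203 CPM in CD VEH. All CD VEH mice were above the WT VEH mice, by a log2 fold-change of 0.28 (-0.06 to 0.61), which did not pass the test (adjusted p = 0.19). Col5a2, a chain of the type V that nucleates fibrils, measured 26.9 and 29.0 CPM in WT VEH and 32.9, 30.2 and 41.7 CPM in CD VEH (log2 fold-change 0.32, -0.01 to 0.65; adjusted p = 0.121). For each of these chains mouse E was the highest of the CD VEH mice, and it had the highest collagen sum of the 11 mice (1599 CPM).

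Of the type VI chains, Col6a1 passed the test. Col6a1 measured 48.3 and 59.1 CPM in WT VEH and 68.5, 61.6 and 81.8 CPM in CD VEH. The groups did not overlap, and the gene rose by a log2 fold-change of 0.40 (0.10 to 0.69; adjusted p = 0.0433). The call was lost without CD VEH mouse A (adjusted p = 0.0808), CD VEH mouse E (0.15), WT VEH mouse C (0.311) or WT VEH mouse D (0.0575), with log2 fold-changes of 0.26 to 0.55. Col6a2, its partner in the same trimer, measured 54.2 and 62.2 CPM in WT VEH and 65.6, 64.7 and 83.0 CPM in CD VEH (log2 fold-change 0.29, -0.01 to 0.59, adjusted p = 0.125). With the letter that names each mouse as a block in the model, Col6a2 passed (0.38, adjusted p = 0.0465).
Col6a3, the long partner of both, had the opposite sign. It measured 33.6 and 32.6 CPM in WT VEH and 26.5, 25.7 and 33.4 CPM in CD VEH (log2 fold-change -0.21, -0.46 to 0.03; adjusted p = 0.16). With an offset for transcript length its difference was 0.01. Per kb, the ratio of Col6a3 to Col6a1 was 0.157 to 0.169 in CD VEH, below every mouse of WT VEH (0.224 to 0.282), WT JZL184 (0.193 to 0.227) and CD JZL184 (0.194 to 0.233). Several ratios between chains were computed and not all are printed. This ratio is given without a test.

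None of the type IV network chains passed this test, although some did in alternatives. Col4a1 measured 313 and 354 CPM in WT VEH and 344, 378 and 457 CPM in CD VEH (log2 fold-change 0.24, -0.06 to 0.53; adjusted p = 0.198). Col4a2 measured 212 and 234 CPM in WT VEH and 238, 263 and 285 CPM in CD VEH (log2 fold-change 0.23, -0.01 to 0.47; adjusted p = 0.122). The Col4a1 to Col4a2 ratio per kb overlapped between the vehicle groups, at 1.44 to 1.48 in WT VEH and 1.40 to 1.56 in CD VEH. Col4a5, the X-linked chain mutated in Alport syndrome, measured 35.9 and 35.4 CPM in WT VEH and 26.5, 30.4 and 33.7 CPM in CD VEH. Its CD VEH mice were all below the WT VEH mice (log2 fold-change -0.24, -0.44 to -0.04), and its adjusted p was 0.0667. With the letter that names each mouse as a block in the model it passed (-0.29, adjusted p = 0.039), and with the length offset its difference was -0.11 (adjusted p = 0.409).

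Among the 12 low chains, Col22a1, a FACIT collagen (one that decorates other fibrils and junctions), was the called one. It measured 1.14 and 1.11 CPM in WT VEH and 0.422, 0.479 and 0.564 CPM in CD VEH, and fell by 1.2 on the log2 scale (adjusted p = 0.00666). Without WT VEH mouse C the adjusted p was 0.0618, with a log2 fold-change of -1.18. Col7a1, of the anchoring fibrils, fell short of the threshold at a log2 fold-change of -0.58 (adjusted p = 0.052).

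**Figure D2:**
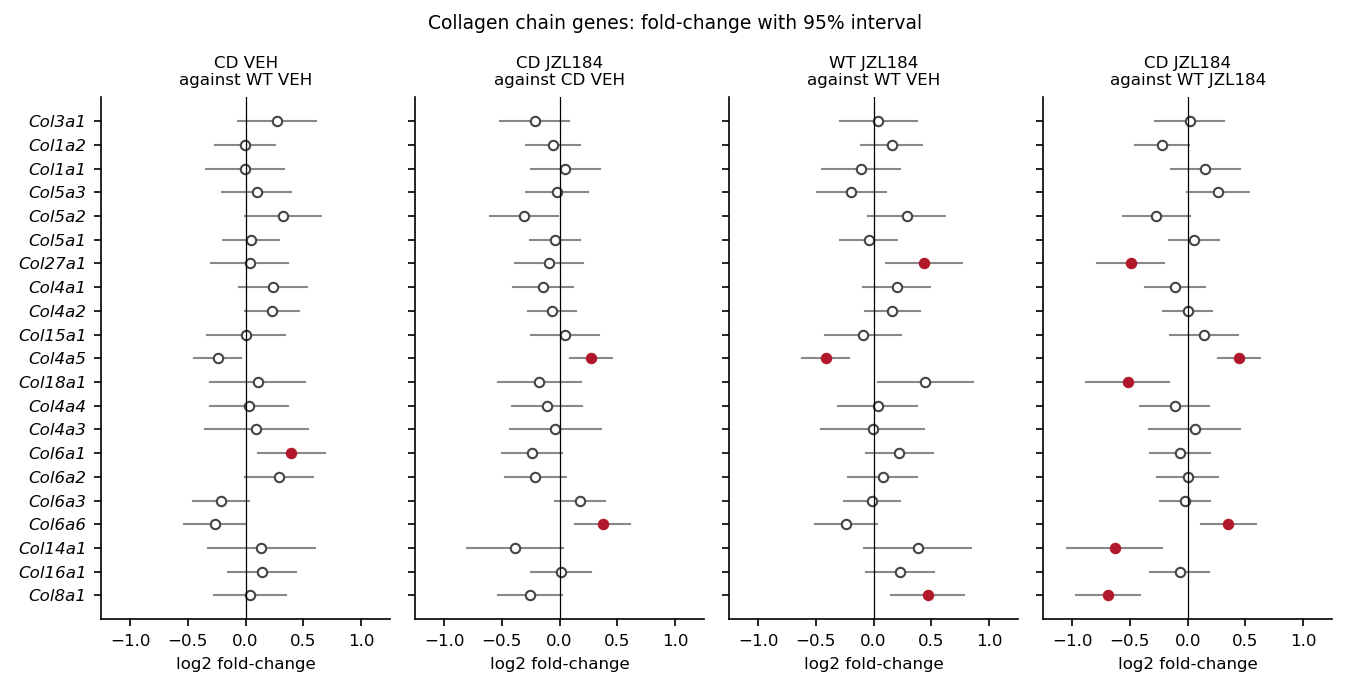
Log2 fold-change with its 95% interval for the 21 chains of the first fit, in 4 comparisons; filled points passed an adjusted p of 0.05. Between CD VEH and WT VEH hearts 1 point is filled, and between CD JZL184 and WT JZL184 hearts 6 are, 2 above and 4 below 0.

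JZL184 in CD hearts moved 2 of the 21 chains up and 0 down (CD JZL184 against CD VEH), while 16.8% of all genes tested rose and 17% fell. In the second fit 2 of 33 chains were called, against 27.5% of genes. The median log2 fold-change was -0.07 over the 21 chains and 0.00 over all genes. With the offset for transcript length the split was 0 higher and 1 lower (Col5a2, log2 fold-change -0.44, adjusted p = 0.0483), against 26.2% of all genes, with a median over the chains of -0.21.

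Col4a5 rose by a log2 fold-change of 0.27 (0.09 to 0.45; adjusted p = 0.0271), from 26.5, 30.4 and 33.7 CPM in CD VEH to 34.2, 35.8 and 39.2 CPM in CD JZL184. The groups did not overlap. The call was lost without CD JZL184 mouse C (adjusted p = 0.0513), CD JZL184 mouse E (0.113) or CD VEH mouse A (0.0906), and with the length offset (log2 fold-change 0.15, adjusted p = 0.213).
Col6a6, a later-described type VI chain, rose by 0.37 on the log2 scale (0.14 to 0.61; adjusted p = 0.022), from 5.25, 5.71 and 4.23 CPM to 6.35, 6.67 and 6.67 CPM. The call was lost without CD JZL184 mouse C (0.0546), CD JZL184 mouse E (0.0664) or CD VEH mouse E (0.0776), and with the length offset (log2 fold-change 0.20, adjusted p = 0.147). Values by mouse for Col6a6 and for Col14a1, Col18a1, Col22a1 and Col27a1 were added after their values had been seen.
The fibrillar chains, Col4a1 and Col4a2 did not pass. Col1a1 measured 48.1, 63.1 and 55.4 CPM, Col1a2 59.3, 74.8 and 69.5 CPM, and Col3a1 125, 177 and 149 CPM in CD JZL184. For Col3a1 the log2 fold-change against CD VEH was -0.22 (-0.51 to 0.08; adjusted p = 0.238), and for Col1a1 it was 0.05 (-0.25 to 0.35; adjusted p = 0.798). Col4a1 measured 307, 411 and 348 CPM and Col4a2 218, 280 and 251 CPM, with mouse A the lowest of the CD JZL184 mice for each of these chains.

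JZL184 in WT hearts (WT JZL184 against WT VEH) moved 2 of the 21 chains up and 1 down, against 15.4% and 14% of all genes tested. In the second fit 3 of 33 were called, against 24.9%. The medians were 0.08 over the chains and 0.00 over all genes.

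Col4a5 fell by 0.42 on the log2 scale (-0.62 to -0.21; adjusted p = 0.00878), from 35.9 and 35.4 CPM to 27.3, 25.6 and 27.4 CPM. All treated mice lay below both vehicle mice, without overlap. The call missed the threshold without WT VEH mouse C (adjusted p = 0.0686, log2 fold-change -0.41) or WT VEH mouse D (0.0532, -0.43), fits in which 1 vehicle mouse remains and is assumed to vary like the other groups.
Col8a1, a short network-forming chain of vessel walls and subendothelium, rose by 0.47 (0.15 to 0.78; adjusted p = 0.0308), from 18.6 and 17.6 CPM to 21.0, 30.1 and 24.3 CPM. Its adjusted p was 0.0858 without WT JZL184 mouse B, 0.119 without WT VEH mouse C, 0.156 without WT VEH mouse D and 0.0534 when the other groups were left out of the model, with log2 fold-changes of 0.32 to 0.51.
Col27a1, a fibrillar chain better known from cartilage, rose by 0.44 (adjusted p = 0.0484), from 3.88 and 4.13 CPM to 4.61, 5.39 and 6.26 CPM. This call was lost in 9 of 14 alternatives, among them the second fit (adjusted p = 0.0522) and leaving out WT JZL184 mouse B (0.0888), WT JZL184 mouse D (0.143), WT VEH mouse C (0.219) or WT VEH mouse D (0.138).
Col22a1 fell by 0.88 (adjusted p = 0.0214), to 0.573, 0.422 and 0.831 CPM. Its adjusted p was 0.061 without WT JZL184 mouse B, 0.115 without WT VEH mouse C and 0.0928 without WT VEH mouse D, with log2 fold-changes of -0.67 to -0.90.

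Col1a1, Col1a2, Col3a1, Col4a1 and Col4a2 did not pass the test. In WT JZL184 hearts Col1a1 measured 39.2, 58.4 and 52.1 CPM (log2 fold-change -0.11, -0.44 to 0.23) and Col1a2 67.3, 89.3 and 81.1 CPM (0.16, -0.11 to 0.42). WT JZL184 mouse A was lowest for both. The per-kb ratio of Col1a1 to Col1a2 mRNA was 0.525 to 0.59 in WT JZL184. It lay below every mouse of WT VEH (0.681 to 0.683), CD VEH (0.66 to 0.712) and CD JZL184 (0.719 to 0.76). This ratio, from the same set as that of Col6a3 to Col6a1, was not tested either. Col3a1 measured 127, 169 and 150 CPM (0.04, -0.29 to 0.38), Col4a1 375, 371 and 403 CPM (0.20, -0.09 to 0.49) and Col4a2 247, 241 and 261 CPM (0.16, -0.07 to 0.40). For both type IV chains all treated mice were above the vehicle mice, with adjusted p of 0.275 and 0.268.

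Of the comparisons between 2 groups, CD JZL184 against WT JZL184 had the most collagen calls, 6 of the 21 chains, 2 higher and 4 lower. Of all genes tested, 18.2% were higher and 20.1% lower. In the second fit 8 of 33 were called, against 33.4% of genes.

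Col8a1 was the most clearly lower chain, at 14.6, 16.6 and 15.6 CPM in CD JZL184 against 21.0, 30.1 and 24.3 CPM in WT JZL184 (log2 fold-change -0.69, -0.97 to -0.41; adjusted p = 0.00237). The call held in all 15 alternatives, with log2 fold-changes of -0.54 to -0.80. Col4a5 was the most clearly higher, at 34.2, 35.8 and 39.2 CPM against 27.3, 25.6 and 27.4 CPM (0.45, 0.26 to 0.63; adjusted p = 0.00241), and its call held in all 15 as well, between 0.37 and 0.49.
Col14a1, a FACIT chain that coats fibrils, was lower by 0.63 on the log2 scale (adjusted p = 0.0214), at 6.28, 6.97 and 7.40 CPM against 8.23, 12.8 and 11 CPM. Col18a1, the basement membrane chain from which endostatin is cut, had a log2 fold-change of -0.52 (adjusted p = 0.0276), at 5.13, 8.05 and 7.59 CPM against 8.67, 11.2 and 9.92 CPM. Each lost its call without CD JZL184 mouse A, WT JZL184 mouse B or WT JZL184 mouse D, with adjusted p of 0.055 to 0.0788 for Col14a1 and 0.0584 to 0.0886 for Col18a1.
Col27a1 was lower by a log2 fold-change of -0.49 (adjusted p = 0.0132), at 4.02, 3.38 and 4.16 CPM, and missed the threshold without CD JZL184 mouse C (0.0521) or WT JZL184 mouse D (0.0568). Col6a6 was higher by 0.35 (adjusted p = 0.0246), and missed it without CD JZL184 mouse C (0.0613), CD JZL184 mouse E (0.0691) or WT JZL184 mouse A (0.0659) and with the length offset (0.0912). Of the low chains, Col12a1 (log2 fold-change -0.67, adjusted p = 0.0252) and Col13a1 (-0.61, adjusted p = 0.0161) were lower in the second fit. Col12a1 missed the threshold without CD JZL184 mouse A (0.0868), CD JZL184 mouse C (0.089) or WT JZL184 mouse B (0.0727), and Col13a1 without CD JZL184 mouse E (0.0686) or WT JZL184 mouse B (0.0538).

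Between treated CD and vehicle WT hearts (CD JZL184 against WT VEH) edgeR called 0 of 21 chains and 0 of 33 in the second fit. At an unadjusted p under 0.05 there were 0 of 21 and 3 of 33. Few genes of any kind were called in this comparison (0.0442% higher and 0.141% lower, or 0.173% in the second fit). The log2 fold-changes of the 21 chains ran from -0.25 (Col14a1) to 0.16 (Col4a2), with 95% intervals of -0.29 to 0.39 for Col1a1, -0.28 to 0.40 for Col3a1 and -0.17 to 0.23 for Col4a5. Col22a1 was the low chain farthest from 0 in this comparison, at 0.632, 0.673 and 0.667 CPM in the treated CD hearts (-0.77 on the log2 scale, -1.28 to -0.25; adjusted p = 0.307).

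Whether JZL184 acted differently in the 2 genotypes was tested by the interaction, the log2 fold-change of treatment in CD minus that in WT hearts. It passed for 7 of 21 chains, 2 above 0 and 5 below, against 25.3% and 26.2% of all genes tested. In the second fit 9 of 33 passed, against 46.4%. With the length offset the split was 1 above and 8 below, against 47.4% of all genes. Col4a1 (-0.55, adjusted p = 0.0337), Col4a2 (-0.43, 0.0364) and Col18a1 (-0.77, 0.0283) then passed as well, and Col6a6 did not, while Col1a1 and Col1a2 did not pass in either fit.

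Col4a5 had the firmest interaction (0.69, 0.42 to 0.96; adjusted p = 0.00103): treatment was accompanied by less of it in WT and more of it in CD hearts. It held in all 19 alternatives, between 0.48 and 0.78. Col6a6 also passed (0.62, 0.26 to 0.97; adjusted p = 0.00849), with a treatment difference in WT hearts that did not pass (-0.24, -0.51 to 0.03; adjusted p = 0.152), and its interaction was lost with the length offset (0.30, adjusted p = 0.113).
Col8a1 had the opposite sign (-0.73, -1.15 to -0.30; adjusted p = 0.00848) and held in all 19 alternatives, between -0.57 and -0.84. Col22a1 had the largest interaction among the chains (1.31, 0.59 to 2.04; adjusted p = 0.0071 in the second fit), and it held in all 15 alternatives run for it, between 1.01 and 1.61. Its 4 groups were not arranged like those of Col4a5, since its 2 WT VEH mice stood above the other 9 mice.
The interactions of Col14a1 (-0.77, adjusted p = 0.0401), Col5a2 (-0.59, 0.0279), Col27a1 (-0.53, 0.045) and Col6a1 (-0.46, 0.0468) were lost in 8, 6, 10 and 10 of 19 alternatives. When mice were left out, that of Col14a1 was lost without CD JZL184 mouse A, C or E, CD VEH mouse A or E, WT JZL184 mouse B or D, or WT VEH mouse D (adjusted p up to 0.171). That of Col5a2 was lost without CD JZL184 mouse A or E, CD VEH mouse E, WT JZL184 mouse B, or either WT VEH mouse (up to 0.0998). That of Col27a1 was lost with no filter on low counts (0.052), with an offset for GC content (0.0784) and without CD JZL184 mouse A or C, CD VEH mouse C or E, WT JZL184 mouse B or D, or either WT VEH mouse (up to 0.135). That of Col6a1 was lost with no filter on low counts (0.0518), in the second fit (0.0534), with the GC content offset (0.0602) and without CD JZL184 mouse A or E, CD VEH mouse A or E, WT JZL184 mouse B or D, or WT VEH mouse C (up to 0.213). In the second fit Col26a1 (-0.78, adjusted p = 0.0323) and Col7a1 (0.74, adjusted p = 0.0434) passed, and were lost in 8 and 11 of 15 alternatives, with adjusted p up to 0.17 and 0.228.

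**Figure D3:**
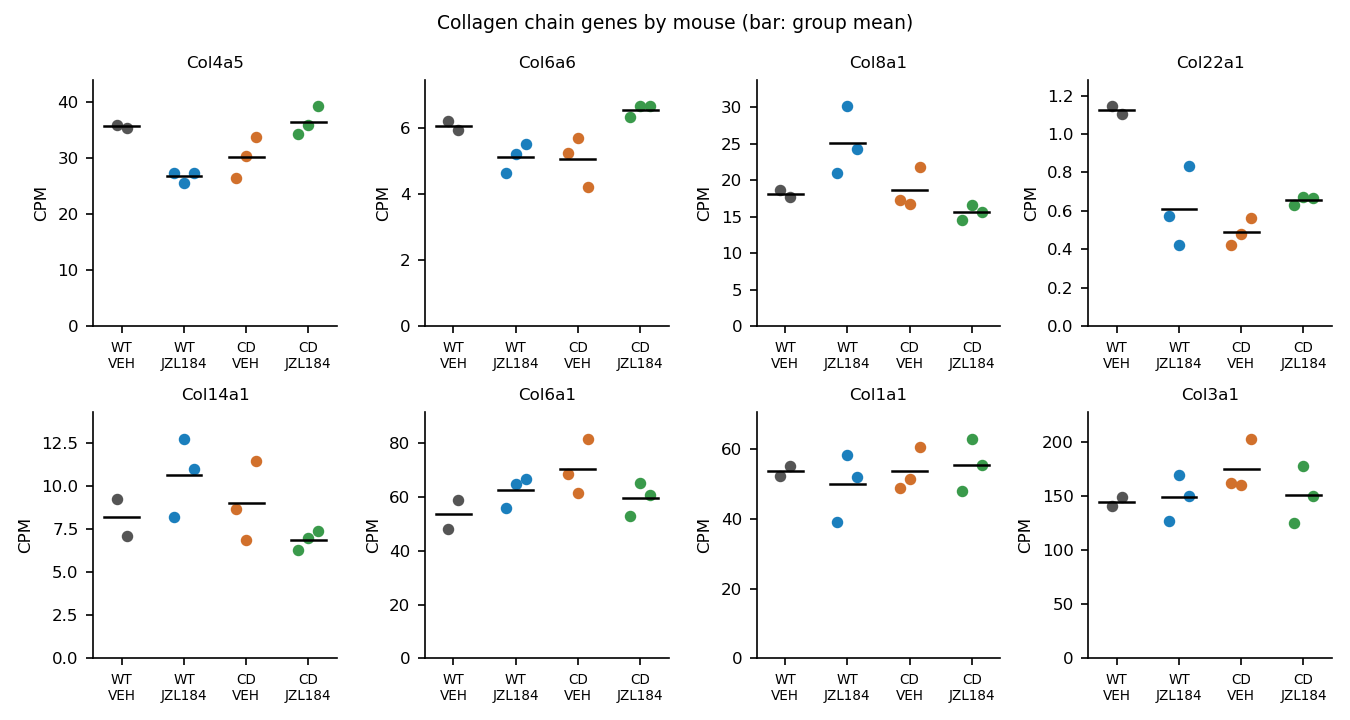
CPM of 8 collagen chain genes in each of the 11 mice, with the group mean as a bar; axes start at 0. Col4a5 in WT JZL184 (25.6 to 27.4 CPM) lies below both WT VEH mice and all CD JZL184 mice, whereas Col1a1 overlaps across the 4 groups.

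Transcript length moved with the same comparisons. In CD VEH against WT VEH, the median log2 fold-change over all genes tested went from 0.18 in the shortest of 5 equal length bins (204 to 1846 bp) to -0.17 in the longest (5309 to 123179 bp). It went from 0.13 to -0.15 in WT JZL184 against WT VEH, from -0.18 to 0.17 in CD JZL184 against CD VEH and from -0.14 to 0.12 in CD JZL184 against WT JZL184. In CD JZL184 against WT VEH it stayed between -0.01 and 0.01. Collagen transcripts are long: of the 21 chains, 16 were in the longest bin and 5 in the one before, with a median of 6450 bp against 3260 bp over all genes tested.
An offset for length in each mouse therefore raised the chains where long transcripts were low. Under it the median of the 21 chains was 0.23 in CD VEH against WT VEH, with 19 of 21 above 0 and 2 called (Col6a1 at 0.43, adjusted p = 0.0379, and Col4a2 at 0.36, adjusted p = 0.0445), against 23.3% of all genes. It was 0.20 in WT JZL184 against WT VEH and -0.37 for the interaction. With an offset for GC content in its place the medians were 0.02 in CD VEH against WT VEH (12 of 21 above 0 and 1 called), 0.01 in WT JZL184 against WT VEH and -0.13 for the interaction (2 called above 0 and 3 below). The part of transcript length, or of what moves with it, in the collagen differences was not tested.

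**Figure D4:**
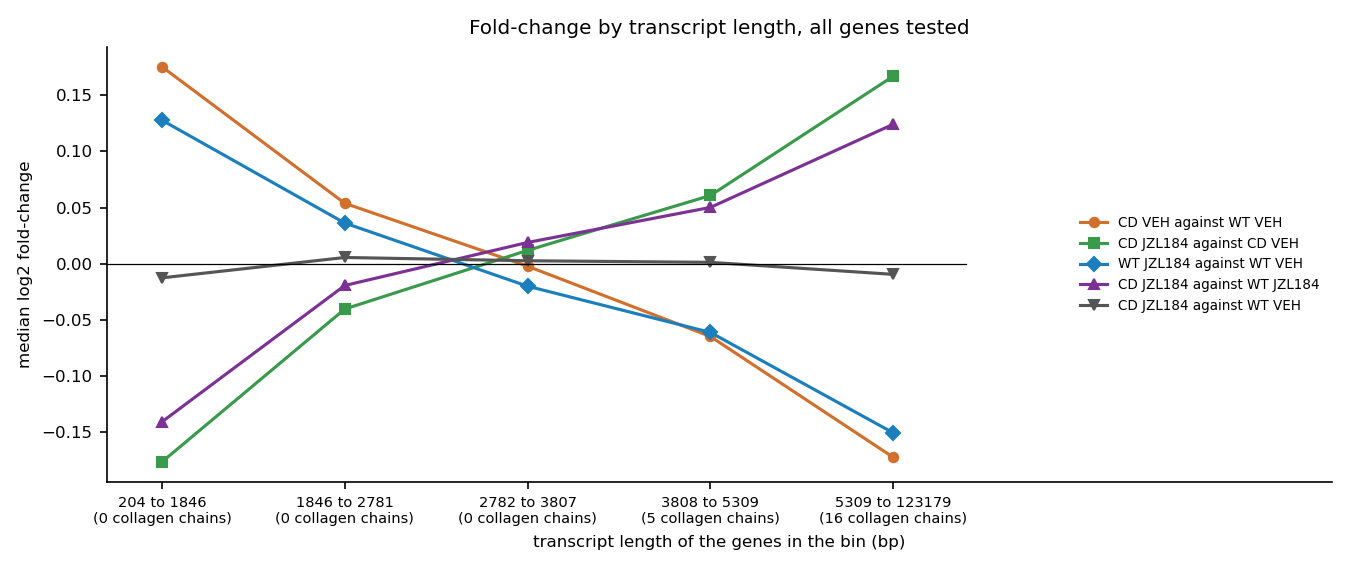
Median log2 fold-change of all genes tested in 5 equal bins of transcript length (bp), 1 line per comparison, with the number of collagen chains in each bin under its range. The lines of CD VEH and WT JZL184 against WT VEH fall from 0.18 and 0.13 to -0.17 and -0.15, and CD JZL184 against WT VEH stays flat.

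Fibrillar chains summed to 355 and 382 CPM in WT VEH, 321 to 423 in WT JZL184, 378 to 465 in CD VEH and 328 to 421 in CD JZL184. Basement membrane chains summed to 648 and 711, 724 to 785, 686 to 882 and 635 to 828 CPM in the same order. The ranges of all 4 groups overlapped in the fibrillar sum, whereas in the basement membrane sum those of WT JZL184 lay above both WT VEH mice. The microfibrillar chains (142 to 202 CPM over the 11 mice) and the FACIT chains (15.4 to 24.2 CPM) were smaller parts, and the transmembrane chains Col13a1, Col23a1 and Col25a1 together stayed under 4 CPM. The 5 remaining chains (Col7a1, Col8a1, Col8a2, Col26a1 and Col28a1) summed to 17.2 to 19.1 CPM in CD JZL184 and 23.9 to 33.5 CPM in WT JZL184, without overlap. Col8a1, whose call is given above, made up 14.6 to 16.6 and 21.0 to 30.1 CPM of these sums.
The members not yet described passed in no comparison: Col5a1, Col5a3, Col15a1, Col16a1, Col4a3 and Col4a4 among the 21, and Col4a6, Col8a2, Col11a2, Col20a1, Col23a1, Col25a1 and Col28a1 in the second fit. Col5a1 had the lowest coefficient of variation over the 11 mice, at 8.43%, against 36.5% for Col22a1. This value includes differences between groups and counting noise (2152 to 3616 counts per mouse for Col5a1 and 30 to 89 for Col22a1).

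Other genes fold, process and arrange collagen. Among 19 tested genes of collagen folding and modification, 3 rose and 2 fell in CD VEH against WT VEH, and 5 rose and 2 fell in WT JZL184 against WT VEH, comparisons that share the WT VEH mice. Of all genes tested, 30.4% and 29.4% were called in these comparisons. In CD VEH the folding genes included Colgalt2, a collagen galactosyltransferase (0.51, adjusted p = 0.0149), Ppib, a prolyl isomerase (0.49, 0.00385), P4ha2, a subunit of prolyl 4-hydroxylase (-0.52, 0.00508), and Mia3, which helps load procollagen into vesicles (-0.24, 0.0195). In WT JZL184 they included Colgalt2 (0.54, 0.0125), Ppib (0.43, 0.00587), Mia3 (-0.25, 0.0168) and Plod2, a lysyl hydroxylase (-0.18, 0.0484).
Of 5 tested procollagen processing genes, 1 rose in CD VEH, Pcolce, an enhancer of C-propeptide cleavage (0.47, adjusted p = 0.00837). In WT JZL184 Pcolce rose (0.58, 0.00407) and Adamts3, an N-propeptidase, fell by 0.46 (0.0333). Of 5 crosslinking genes, Pxdn, the peroxidase that crosslinks type IV, rose in CD VEH (0.44, 0.00831) and in WT JZL184 (0.38, 0.0151), and the lysyl oxidase gene Lox rose in WT JZL184 (0.50, 0.041). In CD JZL184, 2 of these 5 were lower than in CD VEH and 3 were lower than in WT JZL184, with 0 higher in either, and the interaction passed below 0 for all 5. The shares of all genes tested were 17%, 20.1% and 26.2% in these directions. Of the 19 folding genes, 1 was higher and 1 lower, 2 higher and 5 lower, and 3 above and 5 below 0, in the same order. Of the 5 processing genes, 1 went up and 2 down in each. Upward, 16.8%, 18.2% and 25.3% of all genes passed.

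Fibril organisation genes are proteoglycans and matrix glycoproteins that bind collagen fibrils. Of 11 tested, 5 rose and 0 fell in CD VEH, 10 rose and 0 fell in WT JZL184, and 7 fell and 0 rose in CD JZL184 against CD VEH, where 15%, 15.4% and 17% of all genes moved in these directions. The medians of these genes were 0.27, 0.51 and -0.40, against 0.01, 0.00 and 0.00 over all genes. Sparc, a collagen-binding glycoprotein, rose by a log2 fold-change of 0.71 in CD VEH (adjusted p = 0.0147) and 0.70 in WT JZL184 (0.0154). It measured 206 and 230 CPM in WT VEH, 311, 409 and 347 CPM in WT JZL184, 316, 320 and 437 CPM in CD VEH and 189, 278 and 218 CPM in CD JZL184. Thbs2 rose in CD VEH (0.44, adjusted p = 0.0355) and Lum, the keratan sulphate proteoglycan lumican, in WT JZL184 (0.74, 0.00439). These transcripts are shorter than the chains (median 2566 bp), and with the length offset the counts were again 5 and 10 in CD VEH and WT JZL184. The interaction passed for 10 of the 11, all below 0, with and without that offset, against 26.2% of all genes below 0 without it.

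For collagen breakdown, 0 of 11 genes passed in CD VEH by edgeR (2 had an unadjusted p under 0.05) and 2 rose in WT JZL184, Fap, a fibroblast protease (0.55, adjusted p = 0.0199), and Timp3, an inhibitor of metalloproteinases (0.54, 0.00809). In CD JZL184, 2 of the 11 were lower than in CD VEH and 6 lower than in WT JZL184, and the interaction passed below 0 for 7 (median -0.59), with 0 the other way in each. The shares of all genes tested in these directions were 15.4% for the rises in WT JZL184, then 17%, 20.1% and 26.2%. Of 6 collagen receptors, 0 passed in CD VEH (2 had an unadjusted p under 0.05) and 3 rose in WT JZL184, with Lair1 (0.60, 0.0158) and Itga1 (0.35, 0.0227) the highest. In CD JZL184, 1 rose and 2 fell against CD VEH, 1 was higher and 4 were lower than in WT JZL184, and the interaction passed above 0 for 1 and below 0 for 3. The shares of all genes for these directions were 15.4% for the rises in WT JZL184, then 16.8% and 17%, 18.2% and 20.1%, and 25.3% and 26.2%. With the length offset 3 receptors rose in CD VEH, against 23.3% of all genes called in either direction.
Basement membrane partners are the laminins, nidogens and perlecan that lie with type IV. Of 9, 0 passed in CD VEH (3 had an unadjusted p under 0.05), while in WT JZL184 Nid1, a nidogen, rose (0.32, adjusted p = 0.0223), and Lama5 (-0.56, 0.0106) and Lamb2 (-0.30, 0.0354), laminin chains, fell. Lama5 rose by 0.53 (adjusted p = 0.00745) and Lamb2 by 0.40 (0.00617) in CD JZL184 against CD VEH. In that comparison 3 of the 9 rose and 0 fell (median 0.03), against 16.8% and 17% of all genes, but 2 rose and 2 fell with the length offset (median -0.15), against 26.2% called in either direction. With the offset 1 partner rose in CD VEH (23.3% of all genes called), and 4 rose and 1 fell in WT JZL184 (28.2%).

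**Figure D5:**
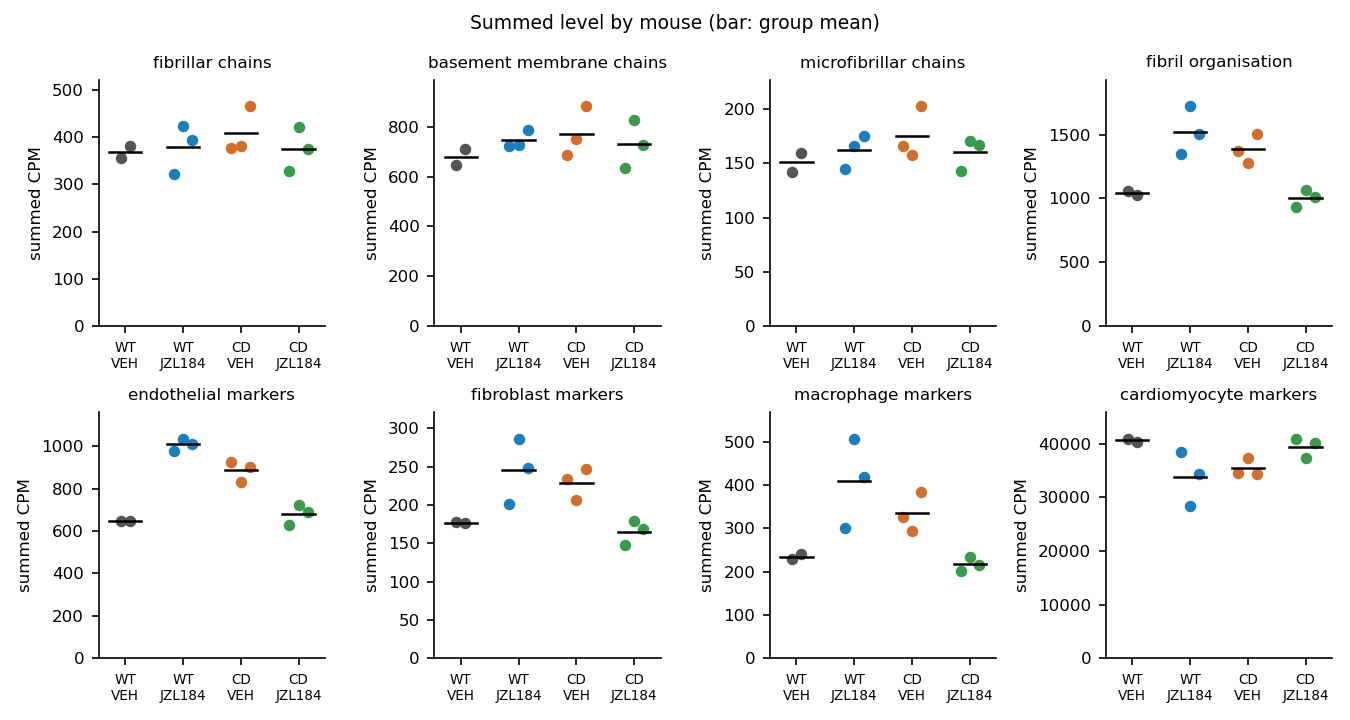
Summed CPM per mouse of 3 collagen classes, of the fibril organisation genes and of markers of 4 cell types, with the group mean as a bar; axes start at 0. Fibrillar chains overlap across groups, whereas the fibril organisation genes and the endothelial and fibroblast markers are higher in WT JZL184 and CD VEH than in WT VEH and CD JZL184.

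Markers of the cells that make collagen moved with group. Fibroblast markers summed to 176 and 177 CPM in WT VEH, 201 to 287 in WT JZL184, 206 to 247 in CD VEH and 148 to 179 in CD JZL184. Of 7 tested, 2 rose in CD VEH and 4 in WT JZL184, and 4 fell in CD JZL184 against CD VEH, where 15% and 15.4% of all genes rose and 17% fell, which are also the shares beside the marker counts that follow. Endothelial markers, of a cell that lies on type IV collagen, summed to 646 and 648, 979 to 1036, 831 to 925 and 631 to 725 CPM in the same order, with 7 and 8 of 8 genes higher and 7 of 8 lower in those comparisons.
Mural cell markers rose for 5 and 6 of 6 genes in CD VEH and WT JZL184 (549 to 574 CPM in WT VEH, 813 to 901 in WT JZL184, 782 to 925 in CD VEH and 568 to 579 in CD JZL184). Macrophage markers, of a cell that makes little collagen, rose for 4 and 6 of 6 (229 to 240 CPM in WT VEH, 300.1 to 507 in WT JZL184, 295 to 385 in CD VEH and 203 to 233 in CD JZL184). Activated fibroblast markers rose for 0 of 3 tested in either comparison (edgeR, with 0 at an unadjusted p under 0.05), and were lower for 3 of 3 in CD JZL184 against WT JZL184 (20.1% of all genes). Of 8 cardiomyocyte markers, 3 fell in CD VEH and 4 in WT JZL184, against 15.4% and 14% of all genes. With the length offset 1 and 2 of the 8 fell, against 23.3% and 28.2% of all genes called in either direction. Atrial, adipocyte, epicardial and Schwann cell markers were near the lower limit, with sums of at most 2.40, 1.74, 4.85 and 6.32 CPM per mouse and 0, 0, 1 and 1 genes tested. The part of these markers in the collagen differences was not tested.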

How the data were processed

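Ventricular RNA-seq of 11 mice was deposited as 1 table of estimated counts per gene, which the authors made with Salmon 0.7.2 (submitters' processing notes) against a mouse transcriptome of GRCm38 and summed to genes; strand use was not given in the sources used here. Rounding to whole numbers preceded the tests. Of 22608 genes, 22238 were matched by Ensembl identifier to GENCODE M21. Every column had a group, named by genotype, treatment and a letter.

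Libraries of 69660329 to 92251550 counts make 3 counts worth 0.0325 to 0.0431 CPM. CPM used TMM factors. edgeR 4.0.16 (R 4.3.3) quasi-likelihood tests with Benjamini-Hochberg adjustment were run in 1 model of the 4 groups; the common biological coefficient of variation was 9.13%. Intervals are 95%. In counts simulated for CD VEH against WT VEH (11289 genes), edgeR recovered 65% of log2 changes of 0.5 and 100% of changes of 1. Far fewer genes changed in the simulation than were called in the data, and changes under 0.5 were not simulated. Of the calls in it, 5.17% were false with edgeR and 14.1% with DESeq2. P-values measure the spread between these mice.

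Alternatives were DESeq2 1.42.0, RLE or upper quartile factors, other filters, fewer groups in the model, loess offsets (span 0.5) for length or GC content, no mitochondrial genes, and each mouse left out. Leaving out mice for single genes, the second fit's alternatives, RLE class sums and a block on the mouse letter were added after seeing the data. Transcript length was that of the longest protein-coding transcript. Values by mouse are given for called chains averaging at least 10 CPM and the most abundant chain of each class. They are also given for Col1a1, Col1a2, Col4a1, Col4a2, Col6a1, Col6a2 and Col6a3. Of each pathway list, the called genes with the highest and lowest changes were named. Members and lists were chosen with earlier results of these data known. Promoter sequences are from RefSeq (GRCm38.p6), which matched 26 of the 33 chains.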

Additional observations from a re-analysis of the deposited data

Results flagged for a closer look

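For 7 chains the log2 change with JZL184 differed between genotypes by the edgeR interaction test (change in CD minus change in WT), against 51.5% of all genes tested. It was above 0 for Col4a5 (0.69, adjusted p = 0.00103) and Col6a6 (0.62, adjusted p = 0.00849). It was below 0 for Col8a1 (-0.73, adjusted p = 0.00848) and Col14a1 (-0.77, adjusted p = 0.0401). The fibrillar chains among them were Col5a2 (-0.59, adjusted p = 0.0279) and Col27a1 (-0.53, adjusted p = 0.045). Col6a1 was the closest to the threshold (-0.46, adjusted p = 0.0468). The calls of Col14a1, Col5a2, Col27a1 and Col6a1 were lost in 6 to 10 of 19 alternatives, and that of Col6a6 with the length offset (adjusted p = 0.113).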

How the results depend on the processing

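The columns carry letters, not the labels' replicate numbers, and no source says that a letter pairs mice. Of 8 pairs of mice with the same letter, 1 had deviations from the group means correlated over 0.1 (-0.253 to 0.314), against 11 of 37 with different letters. The 2 WT VEH mice deviate from their mean in mirror image, which fixes the signs of their pairs. These counts therefore cannot decide whether letters pair mice. A replicate block on the letter, added after seeing the data, called 3 chains when CD VEH was set against WT VEH, 2 (as without it) when CD JZL184 was set against CD VEH, 0 in WT JZL184 against WT VEH, 2 in CD JZL184 against WT JZL184, 0 in CD JZL184 against WT VEH and 4 for the interaction. Under it Col4a5 and Col8a1 passed for the interaction (0.60, adjusted p = 0.00399, and -0.63, 0.0148) and in CD JZL184 against WT JZL184 (0.31, 0.0477, and -0.59, 0.0306), and neither passed in WT JZL184 against WT VEH (-0.33, 0.0542, and 0.38, 0.0973). The number of chains called in CD VEH against WT VEH (1) was 2 with no filter on low counts and 2 with at least 10 counts in every mouse, fits that add Col22a1 to the genes tested. With the gene length offset it was 2, and in CD JZL184 against CD VEH (2) it was 1. The cause of these offset differences was not tested. Leaving out 1 mouse at a time gave 0 to 2 calls in CD VEH against WT VEH, 0 to 4 in CD JZL184 against CD VEH, 0 to 4 in WT JZL184 against WT VEH, 4 to 6 in CD JZL184 against WT JZL184, 0 in CD JZL184 against WT VEH and 3 to 8 for the interaction. Of 2655 alternative values for single genes, 176 had the other sign, none of them called, of which 153 moved by less than 1 SE and 23 by more. With the length offset the sign turned in 23 of 198 values and those that moved by more than 1 SE were Col12a1 in CD VEH against WT VEH (0.0079), Col7a1 in CD JZL184 against CD VEH (-0.042), Col5a1 in WT JZL184 against WT VEH (0.085), CD JZL184 against WT JZL184 (-0.063) and the interaction (-0.29), and Col6a3 in CD VEH against WT VEH (0.012), CD JZL184 against CD VEH (-0.034), WT JZL184 against WT VEH (0.15) and the interaction (-0.18). Over the mice left out, ranges that crossed 0 by such a move were, in CD VEH against WT VEH, -0.52 to 0.062 for Col12a1, -0.077 to 0.34 for Col14a1 and -0.17 to 0.086 for Col15a1. For CD JZL184 against CD VEH such ranges were -0.30 to 0.00041 for Col18a1, -0.16 to 0.17 for Col4a3 and -0.085 to 0.10 for Col5a3. In WT JZL184 against WT VEH they were -0.31 to 0.17 for Col20a1, -0.12 to 0.0698 for Col5a1 and -0.082 to 0.68 for Col8a2. In CD JZL184 against WT JZL184 they were -0.056 to 0.13 for Col5a1 and -0.35 to 0.41 for Col8a2. In CD JZL184 against WT VEH they were -0.65 to 0.12 for Col11a2, -0.35 to 0.13 for Col20a1 and -0.0089 to 0.48 for Col26a1. Of the other single-gene values, 2279 kept direction, side of the threshold and, if not called, a difference within 1 SE, 64 moved further in the same direction, 102 lost a call and 34 gained one, and RLE factors moved no class sum by more than the spread between mice. Low chains such as Col8a2 (14 to 38 counts) are limited by depth, and WT VEH by its 2 mice.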
